A study of Rattus norvegicus with 16 samples.

Results

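Heat shock proteins and their co-chaperones were examined in the left ventricle of rats bred for high or low running capacity. The set held every gene whose only listed symbol began with Hsp followed by a, b, d, e or h, or with Dnaja, Dnajb or Dnajc, together with Bag1 to Bag6, Hsf1, Hsf2 and Cryab. The proteoglycan gene Hspg2 was left out. These rules found 71 genes on 108 probe sets, of 14217 genes on 31042 probe sets in all. The probe set with the highest mean stood for its gene, which settled the choice for the 26 genes with several probe sets. The set divided into 12 members of the HSP70 and HSP110 families, 8 small heat shock proteins, 2 subunits of the mitochondrial chaperonin, 39 J-domain proteins (4 Dnaja, 12 Dnajb and 23 Dnajc genes), 7 nucleotide exchange factors, the transcription factors Hsf1 and Hsf2, and Hspbap1, whose product binds HSPB1. Hspa8 and Hspa1b were covered only by probe sets that also list another gene, so neither has a value of its own here. The HSP90 genes lie outside the rule and appear only among the related genes at the end.

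Heat shock proteins hold unfolded proteins in a state from which they can fold, refold or be passed on for degradation. HSP70 binds and releases its clients in a cycle driven by ATP: J-domain proteins deliver the client and start hydrolysis, while nucleotide exchange factors such as HSP110 and the BAG proteins release the nucleotide and the client. In heart muscle the small heat shock proteins, with alphaB-crystallin (Cryab) among the most abundant, protect the contractile lattice, and BAG3 works with HSP70 and HSPB8 to clear damaged Z-disc proteins through selective autophagy. Loss of BAG3 causes cardiomyopathy, and HSF1 drives transcription of many of these genes after heat or protein damage.

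The study measured 1 Affymetrix rat expression array per rat in 16 female rats about 7 months old. HCR and LCR rats, the high and the low capacity runners, came from generation 16 of a selection that started from N:NIH stock and chose breeders by their treadmill run at about 11 weeks of age. Each line gave 4 sedentary rats and 4 trained rats of the same age. Training was uphill interval running for 1.5 h on 5 days a week over 8 weeks, with 8 min intervals at 85 to 90% of maximal oxygen uptake and 2 min of recovery at 50 to 60%. Both lines descend from 1 stock under opposite selection, so the comparison holds all that came to differ between them, and RNA came from the whole ventricular wall. Fewer cells of a type and less RNA per cell therefore cannot be told apart. Values are log2 signals, a difference of 1 being a doubling, and they are compared between rats for 1 probe set, not between genes.

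Each difference below is given as log2 signal with its standard error (SE) from 1 limma fit to all 16 arrays (4 rats per group). A gene is called where its p, adjusted by Benjamini and Hochberg over all 31042 probe sets, is 0.05 or less. The p-values measure the spread between rats. Cardiomyocyte markers were present, the mean of 9 of them lying between 13.55 and 13.66 on every array. In HCR sedentary rat 5 the probe sets of Xist, an RNA made in female cells, read 3.76 to 4.94, against 7.56 to 10.34 over the other 15 arrays. The library labelled HCR sedentary rat 5 thus goes against its label of a female rat. Calls are given with and without it, and most other values only with it. Signals were also spread less widely on the HCR sedentary arrays, whose interquartile range was 1.97 to 2.10 against 2.14 to 2.21 on the LCR sedentary arrays.

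Chaperone genes leaned to lower signals in the high capacity line. Among sedentary rats 54 of the 71 genes were lower in HCR than in LCR hearts (76.1%, against 53.6% of all genes), with a median difference of -0.094 against -0.018 over all genes. The call was reached by 7 of the 71: Bag2, Bag3, Dnaja3, Dnajc9, Hspb2 and Hspb3 were lower in HCR and Dnajb13 was higher. Of all genes, 6.3% were called in this comparison, 4.29% lower and 2% higher, so the members' share lay near the background, and 24 of the 71 had an unadjusted p under 0.05 (33.8%, against 31.4% of all genes). Centring each array on its median gave 11 lower and 0 higher calls. Quantile normalization of the deposited values gave 2 lower and 0 higher. The members' median was then -0.15 and -0.029 (-0.076 and 0.0066 over all genes), and 11.2% and 1.93% of all genes were called. Under these scalings 59 and 41 of the 71 were lower, against 65.8% and 47.9% of all genes. Without HCR sedentary rat 5, 52 of 71 were lower and 2 members were called, where 0.499% of all genes were. The background fell to 0.443% without HCR sedentary rat 4, with 1 member called, and to 0.148% without LCR sedentary rat 6, with 0 members called.

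In trained rats a single member was called. Of the 71 genes, 47 were lower in trained HCR than in trained LCR rats (66.2%, against 51.4% of all genes), with a median of -0.050 against -0.003. Bag3 was the 1 member called, where 0.0914% of all genes were, and 14 of the 71 had an unadjusted p under 0.05 (19.7%, against 8.4% of all genes). Averaged over sedentary and trained rats, 50 of 71 were lower in HCR, with a median of -0.075 against -0.006, and 10 were called where 4.92% of all genes were. An unadjusted p under 0.05 was reached by 26 of 71 (36.6%, against 27.9% of all genes). Bag2, Bag3, Dnaja3, Dnajb2, Dnajc27, Dnajc9, Hsf1, Hspa14 and Hspb3 were the 9 called lower (3.38% of all genes), and Dnajb13 was the 1 called higher (1.54%). Quantile normalization left 3 of these calls (Bag3, Dnaja3 and Dnajc9) where 2.72% of all genes were called, and leaving out HCR sedentary rat 5 gave 5 calls, against 2.2% of all genes.

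**Figure D1:**
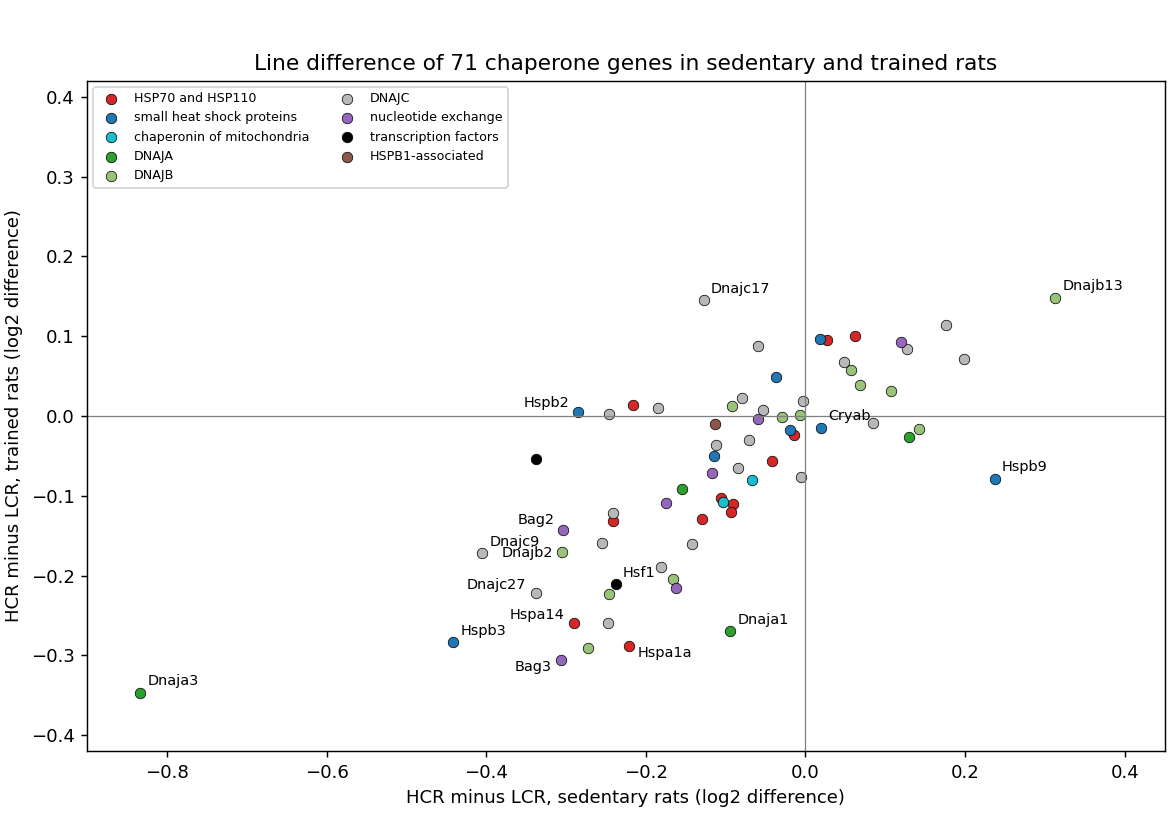
Each point is 1 of the 71 genes, placed by its HCR minus LCR difference (log2 signal) in sedentary rats on the x axis and in trained rats on the y axis, with the members called in any line comparison named. Most points lie left of 0, 54 of 71 for sedentary rats, and Dnaja3 lies farthest out at -0.83.

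Signal level moved with this lean. Of the 60 members whose mean lay at or above the array median, 50 were lower in sedentary HCR rats (83.3%, median -0.11), against 69.0% of all 9488 genes of that level, whose median was -0.082. For the average over training the figures were 76.7% of the members and 65.0% of all such genes. Among the fibroblast markers 6 of 7 were lower in sedentary HCR rats and 1 of them (Lum) was called, the mean of their deviations running from -0.22 to 0.040 in HCR and from 0.029 to 0.24 in LCR. Cardiomyocyte markers were lower for 5 of 9 with 0 called, the mean of their deviations running from -0.048 to -0.011 against -0.020 to 0.0065. Smooth muscle and pericyte markers were higher in sedentary HCR rats for 6 of 6 with Acta2 called, and endothelial and adipocyte markers each for 4 of 5 with 0 called. Of 5 listed nerve markers only 2 were measured, and these 2 were higher with Chl1 called. Lymphocyte markers were higher for 5 of 7 and lower for 2, of which Klrd1 was called. Of all genes 53.6% were lower in sedentary HCR rats, and 4.29% were called lower and 2% higher. The part of array spread and of these cell types in the chaperone results was not tested.

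The plot of array scores shows how the 71 genes moved together in single rats. The median deviation of the members from their own means was below 0 on all 4 HCR sedentary arrays, from -0.089 to -0.015. On the LCR sedentary arrays it ran from -0.010 to 0.043, and on the LCR trained arrays from 0.015 to 0.059. The HCR trained rats lay between -0.039 and 0.020. The HCR sedentary rats thus did not overlap with the LCR rats, with HCR rat 3 at -0.0152 and LCR sedentary rat 3 at -0.0103. The trained HCR rats overlapped with the sedentary rats of both lines and, through rat 3, with the trained LCR rats. The same median over all genes ran from -0.013 to -0.0026 on the HCR sedentary arrays and from -0.0073 to 0.021 on the LCR sedentary arrays.

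**Figure D2:**
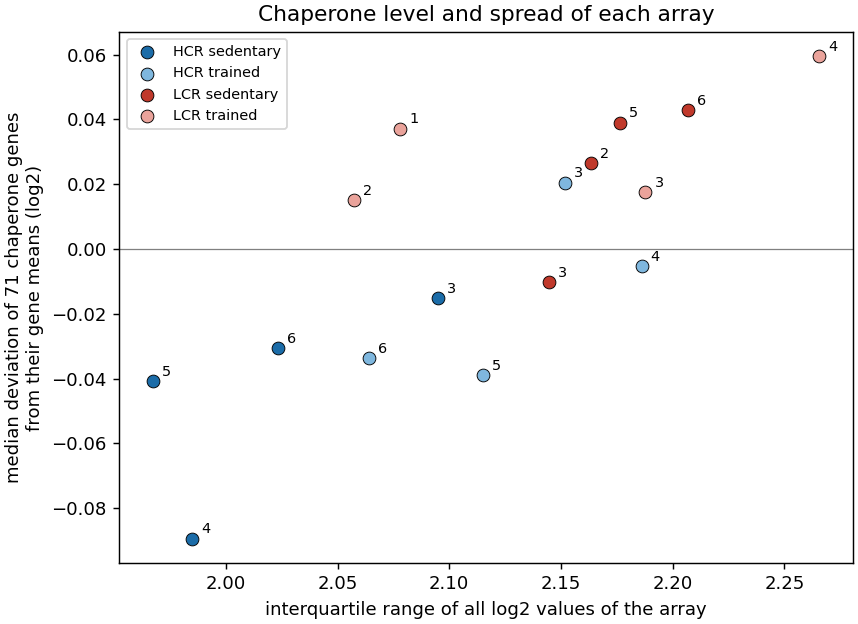
Each point is 1 rat, coloured by group, with the interquartile range of all log2 values of its array on the x axis. The y axis gives the median deviation of the 71 genes from their means over all 16 arrays (log2 signal). All 4 HCR sedentary rats lie between -0.089 and -0.015, and the 4 LCR trained rats between 0.015 and 0.059.

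Promoters were read to see which members carry the binding element of HSF1, and 5 are printed because they show the full element, its short form in Bag3 and the ER element. RefSeq (GRCr8) gave windows of 300 bases, 250 before the start and 50 from it on, for 57 of the 71 genes (58 windows). The full element was searched as GAA, TTC and GAA with 2 bases of any kind between units, or as TTC, GAA and TTC on the other strand, and the short one, which the full one contains, as GAANNTTC or TTCNNGAA. Capitals mark the heat shock element, or in Hspa5 the ER stress response element (CCAAT, 9 bases of any kind and CCACG, on either strand). They were chosen for display after the matches had been seen.
Hsph1 (chr12:10427118-10427417, + strand): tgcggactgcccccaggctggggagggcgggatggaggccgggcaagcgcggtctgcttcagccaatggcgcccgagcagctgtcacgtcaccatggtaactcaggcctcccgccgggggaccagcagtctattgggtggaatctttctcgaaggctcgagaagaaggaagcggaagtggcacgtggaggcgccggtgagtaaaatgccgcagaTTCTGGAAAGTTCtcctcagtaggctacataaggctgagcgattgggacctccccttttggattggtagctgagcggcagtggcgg
Dnaja1 (chr5:60638154-60638453, + strand): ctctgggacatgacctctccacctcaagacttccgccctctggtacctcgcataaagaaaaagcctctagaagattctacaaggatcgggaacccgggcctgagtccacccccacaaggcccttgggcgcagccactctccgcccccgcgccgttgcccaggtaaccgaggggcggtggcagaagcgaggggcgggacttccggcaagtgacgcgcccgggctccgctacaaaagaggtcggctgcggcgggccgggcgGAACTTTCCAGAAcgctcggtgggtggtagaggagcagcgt
Hspe1 (chr9:64084077-64084376, + strand): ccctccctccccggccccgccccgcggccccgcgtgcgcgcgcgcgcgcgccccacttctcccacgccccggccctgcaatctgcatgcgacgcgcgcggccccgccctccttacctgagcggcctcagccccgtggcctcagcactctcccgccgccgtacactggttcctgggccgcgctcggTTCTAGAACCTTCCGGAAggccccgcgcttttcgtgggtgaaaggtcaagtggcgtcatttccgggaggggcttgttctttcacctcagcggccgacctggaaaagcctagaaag
Bag3 (chr1:192533210-192533509, + strand): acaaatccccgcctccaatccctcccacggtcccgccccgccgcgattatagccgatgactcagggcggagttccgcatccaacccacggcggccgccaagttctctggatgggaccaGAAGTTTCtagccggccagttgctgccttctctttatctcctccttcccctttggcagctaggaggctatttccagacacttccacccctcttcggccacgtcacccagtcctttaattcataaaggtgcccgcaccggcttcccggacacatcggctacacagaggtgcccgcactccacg
Hspa5 (chr3:38452766-38453065, + strand): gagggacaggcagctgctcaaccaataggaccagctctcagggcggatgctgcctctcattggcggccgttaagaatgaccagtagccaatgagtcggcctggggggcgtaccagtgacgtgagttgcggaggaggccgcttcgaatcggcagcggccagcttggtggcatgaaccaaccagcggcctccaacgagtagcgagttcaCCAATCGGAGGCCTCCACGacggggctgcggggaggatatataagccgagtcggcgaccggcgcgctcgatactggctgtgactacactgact

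The full heat shock element stood in 4 of the 58 member windows (6.9%), those of Hsph1, Dnaja1, Hspd1 and Hspe1, and in 267 of all 33469 windows (0.798%). Hspd1 and Hspe1 are neighbours on opposite strands, their windows overlap, and the stretch of paired elements printed for Hspe1 at -65 to -48 is the same DNA as the match of Hspd1 at -242 to -225. The match in Hsph1 spans -36 to -24 and that in Dnaja1 spans 10 to 22, past the start. The short element stood in 15 member windows (25.9%) and in 15.9% of all windows. Of the 9 called members with a window, 0 held the full element and 2 the short one, Bag3 at -132 to -125 and Dnajc27 at -221 to -214. The ER stress response element stood in the windows of Hspa5 and Dnajc3 and in 0.0657% of all windows. A CCAAT box (CCAAT or ATTGG, contained in the ER element) was in 36.2% of member windows and 37.5% of all.

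Line differences are given by match as a description. The 4 genes with the full element were all lower in HCR in each of the 3 line comparisons, and 0 of them was called. Their medians were -0.094 in sedentary rats, -0.11 in trained rats and -0.11 on average. Of all genes 53.6%, 51.4% and 52.1% were lower in these comparisons. Of genes with a mean at or above the array median 69.0%, 54.5% and 65.0% were. After quantile normalization Dnaja1 (0.027) and Hsph1 (0.035) turned higher in sedentary HCR rats. Among the 11 genes with the short element alone, 8 were lower on average with a median of -0.13, and Bag3 and Dnajc27 were called. Of the 42 genes with neither, 30 were lower with a median of -0.056, and 6 were called lower and 1 higher. Hspa1a, which heat induces through HSF1, was among these 42. A match describes letters in this window and no binding, and the lack of a match does not show that HSF1 leaves the gene alone.

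Both heat shock transcription factors read lower in HCR rats, and Hsf1 was called on average. Hsf1, the factor that answers heat, read 7.43, 7.20, 7.17 and 7.29 in HCR sedentary rats 3, 4, 5 and 6, and 7.38, 7.30, 7.42 and 7.40 in HCR trained rats 3 to 6. In LCR sedentary rats 2, 3, 5 and 6 it read 7.37, 7.61, 7.47 and 7.59, and in LCR trained rats 1 to 4 it read 7.58, 7.61, 7.77 and 7.38. The lines overlapped only between 7.37 and 7.43. The average difference was -0.22 ± 0.058 (SE, n = 8 per line, limma adjusted p = 0.0423), or 1.17-fold, with 0.0849 for sedentary and 0.566 for trained rats alone. The call was kept in 4 of 16 fits that each left out 1 array, those without HCR sedentary rat 3, LCR sedentary rat 2 or LCR trained rats 2 or 4. Over all 16 the adjusted p ran from 0.0256 to 0.0886, the highest without HCR sedentary rat 5, and after quantile normalization it was 0.131. Hsf2, its relative with roles in development, differed by -0.20 ± 0.096 on average (adjusted p = 0.226), and its other 3 probe sets by -0.16, 0.070 and 0.018.

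Of 10 measured members that heat induces through HSF1, 8 were lower in HCR in each line comparison and Bag3 was the 1 called. Of all genes 53.6% were lower and 6.3% called in sedentary rats, 51.4% and 0.0914% in trained rats, and 52.1% and 4.92% on average. Of genes with a mean at or above the array median 69.0%, 54.5% and 65.0% were lower. In sedentary rats Dnaja1 and Hsph1 turned higher in HCR after quantile normalization, and Cryab and Hspb1 turned lower after centring. Hspa1a, the inducible HSP70, read 8.80, 8.62, 8.17 and 8.63 in the HCR sedentary rats and 8.54, 8.40, 7.89 and 8.82 in the HCR trained rats. It read 8.85, 8.35, 8.97 and 8.93 in the LCR sedentary rats and 8.62, 8.87, 8.78 and 8.53 in the LCR trained rats. All 4 groups overlapped, and the average difference of -0.25 ± 0.13 did not pass (adjusted p = 0.226). Dnajb1, the J-domain partner of inducible HSP70, differed by -0.23 ± 0.10 (adjusted p = 0.166), Hsph1, its exchange factor, by -0.11 ± 0.064 (0.317) and Dnaja1 by -0.18 ± 0.084 (0.2). Cryab was level, with every rat between 13.97 and 14.09 and an average difference of 0.0023 ± 0.031 (adjusted p = 0.972).

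HSP70 and HSP110 genes were lower in HCR for 10 of 12 in sedentary rats, 9 of 12 in trained rats and 10 of 12 on average, with medians of -0.10, -0.11 and -0.10, and the medians stayed below 0 under centring and quantile normalization. Hspa14, a ribosome-associated HSP70, was the only one called. It read 6.85, 6.59, 6.65 and 6.72 in HCR sedentary rats, 6.54, 6.87, 6.81 and 6.66 in HCR trained rats, 6.80, 7.03, 7.14 and 7.00 in LCR sedentary rats and 6.78, 6.98, 7.20 and 6.96 in LCR trained rats. The lowest rat of each LCR group lay inside the HCR range, and the other 6 LCR rats lay above it. The average difference was -0.27 ± 0.068 (n = 8 per line, limma adjusted p = 0.0366), 1.21-fold, and it was called without HCR sedentary rat 3, HCR trained rats 4 or 5, LCR sedentary rat 2 or LCR trained rats 1 or 2, with an adjusted p of 0.0215 to 0.0787 over all 16 left-out arrays and 0.0745 without HCR sedentary rat 5. Quantile normalization gave 0.0512.

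Organelle forms of HSP70 showed small differences. Hspa9, the HSP70 of the mitochondrial matrix, read 10.97 to 11.13 in HCR sedentary rats and 11.16 to 11.24 in LCR sedentary rats, without overlap, while the trained groups ran from 11.03 to 11.22 and from 11.14 to 11.30. Its average difference was -0.13 ± 0.042 (adjusted p = 0.0832), with -0.088, 0.12 and 0.24 on its other 3 probe sets. Hspa5, the HSP70 of the endoplasmic reticulum, differed by -0.049 ± 0.087 (adjusted p = 0.755). Hspa4, an HSP110 of the cytosol, differed by -0.19 ± 0.085 (0.194). Hspa2 and Hspa1l, known for expression in testis, had means under 5 and differed by 0.061 and -0.10, and neither passed.

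The mitochondrial chaperonin genes Hspd1 and Hspe1, which encode the barrel and its lid, were both lower in HCR in each line comparison and under each scaling, and neither was called. Hspd1 read 11.89 to 12.00 in HCR sedentary, 11.82 to 12.10 in HCR trained, 11.96 to 12.05 in LCR sedentary and 11.95 to 12.13 in LCR trained rats. Its average difference was -0.074 ± 0.044 (adjusted p = 0.319). Hspe1 read 11.65 to 11.77 in HCR sedentary rats and 11.78 to 11.83 in LCR sedentary rats, without overlap, and its average difference was -0.11 ± 0.046 (0.175). The heat map of members shows both as paler rows than Dnaja3.

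**Figure D3:**
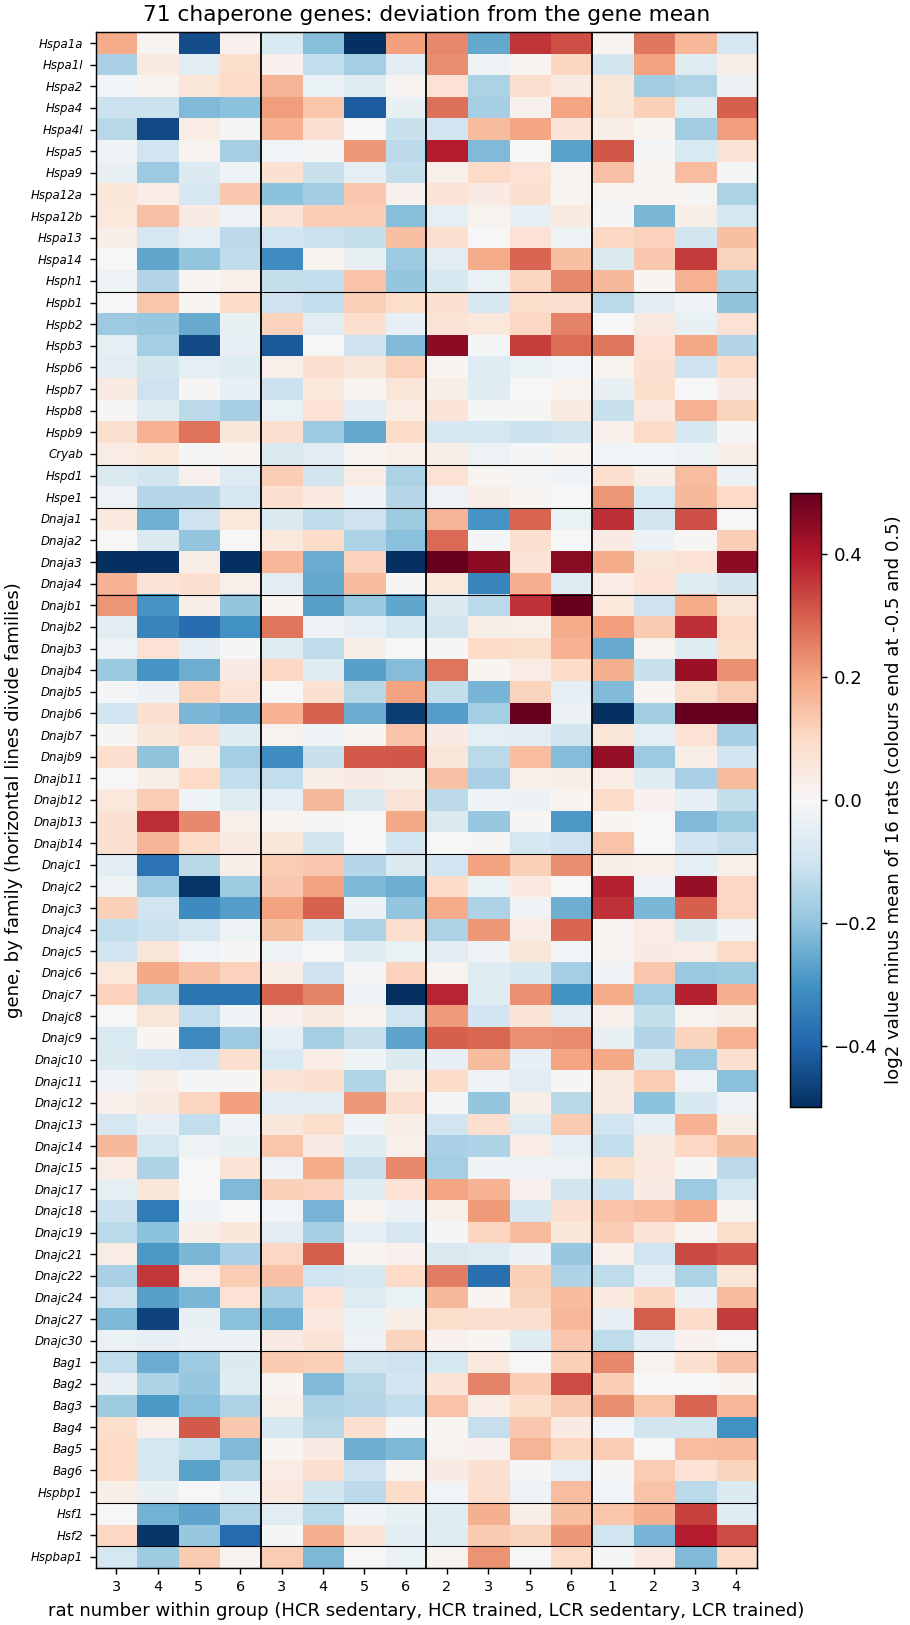
Rows are the 71 genes by family and columns the 16 rats by group, and the colour gives the deviation from the gene's own mean over all rats in log2 signal, blue below and red above it, with colours ending at -0.5 and 0.5. Dnaja3 stands out as mostly blue in HCR and red in LCR rats and read 7.68 to 8.54 in HCR and 8.43 to 9.002 in LCR rats.

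J-domain proteins, 39 of the 71 members, held 5 of the 11 genes called in any line comparison. In sedentary rats 1 of 4 Dnaja, 1 of 12 Dnajb and 1 of 23 Dnajc genes were called, where 6.3% of all genes were. On average 1, 2 and 2 were called, where 4.92% of all genes were. Dnaja genes were lower for 3 of 4 in sedentary rats (2 of 4 after quantile normalization), 4 of 4 in trained rats (3 of 4) and 3 of 4 on average. Dnaja3, a mitochondrial J-domain partner of HSPA9 whose loss in mouse heart causes dilated cardiomyopathy, had the widest difference in the set. It read 7.68, 7.83, 8.41 and 7.83 in HCR sedentary rats and 9.002, 8.82, 8.44 and 8.82 in LCR sedentary rats. It read 8.54, 8.12, 8.48 and 7.71 in HCR trained rats and 8.56, 8.43, 8.44 and 8.82 in LCR trained rats. The sedentary lines did not overlap, with HCR rat 5 at 8.41 just under LCR rat 5 at 8.44, and the trained lines did overlap.

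The sedentary difference of Dnaja3 was -0.83 ± 0.18 (n = 4 per line, limma adjusted p = 0.0264), or 1.78-fold, and the trained difference -0.35 ± 0.18 (adjusted p = 0.728). Over training it averaged -0.59 ± 0.13 (adjusted p = 0.0213). Without HCR sedentary rat 5, the library whose Xist is low, the sedentary difference was -0.99 (adjusted p = 0.0340) and the average -0.67 (0.0124). The sedentary call was lost without HCR sedentary rats 4 or 6 or LCR sedentary rats 3 or 6 (adjusted p up to 0.0808), and the average call was kept in all 16 such fits. After quantile normalization the sedentary difference was -0.71 (adjusted p = 0.0552), and with the rat number as a replicate block the average was -0.57 (0.0624), so each of these calls ended there.

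Dnajb genes showed no common lean, with 7 of 12 lower in sedentary rats (median -0.019), 6 of 12 in trained rats and 7 of 12 on average (-0.009), and medians of 0.062, 0.012 and 0.038 after quantile normalization. Dnajb2, a J-domain protein rich in neurons and muscle that delivers clients to the proteasome, read 9.80, 9.52, 9.48 and 9.55 in HCR sedentary rats and 9.76, 9.88, 9.88 and 10.04 in LCR sedentary rats. Trained rats read 10.12, 9.84, 9.82 and 9.77 in HCR and 10.07, 9.99, 10.22 and 9.95 in LCR. The lines overlapped in both states. The average difference of -0.24 ± 0.064 sat at the threshold (limma adjusted p = 0.04997), its second probe set differed by -0.0055, and the call was kept only without HCR sedentary rat 3, HCR trained rat 3, LCR sedentary rat 2 or LCR trained rat 2. Its adjusted p ran from 0.0212 to 0.102 over the 16 left-out arrays, the highest without HCR sedentary rat 5. The difference was -0.12 (0.0828) as the mean of its probe sets and -0.17 (0.118) after quantile normalization. Dnajb4, a cytosolic partner of HSP70 in muscle, lay just outside the threshold at -0.28 ± 0.077 (adjusted p = 0.0513).

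Dnajb13, an axonemal protein of sperm and cilia, was the 1 member called higher in HCR. It read 6.64, 6.93, 6.80 and 6.59 in HCR sedentary rats and 6.49, 6.37, 6.57 and 6.27 in LCR sedentary rats, with HCR rat 6 just above LCR rat 5. Trained rats read 6.57, 6.57, 6.56 and 6.75 in HCR and 6.57, 6.56, 6.34 and 6.38 in LCR, with overlap. The differences were 0.31 ± 0.086 in sedentary rats (limma adjusted p = 0.0474), 0.15 ± 0.086 in trained rats (0.778) and 0.23 ± 0.061 on average (0.0450). Each of the sedentary and average calls was lost in 10 of 16 fits with 1 array left out, among them the fit without HCR sedentary rat 5 (adjusted p = 0.129 and 0.0916). The sedentary call was kept without HCR sedentary rat 3, HCR trained rat 6 or any 1 of the LCR trained rats, and the average call without HCR sedentary rats 3 or 6, LCR sedentary rats 2 or 5 or LCR trained rats 1 or 2. Quantile normalization ended both calls (0.0608 and 0.0565), and centred arrays (0.0568), a variance trend (0.0517) or only the arrays compared (0.0604) ended the sedentary one.

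Dnajc genes were lower for 18 of 23 in sedentary rats (median -0.085), 12 of 23 in trained rats (-0.009) and 15 of 23 on average (-0.050). After quantile normalization the counts were 12, 11 and 13 of 23, with medians of -0.017, 0.00098 and -0.0074. Dnajc9, a J-domain histone chaperone of the nucleus, read 7.92, 8.01, 7.68 and 7.82 in HCR sedentary rats and 8.30, 8.29, 8.23 and 8.23 in LCR sedentary rats. It read 7.95, 7.83, 7.89 and 7.73 in HCR trained rats and 7.96, 7.85, 8.11 and 8.17 in LCR trained rats. LCR sedentary rats stood above all 12 other rats. The sedentary difference was -0.41 ± 0.079 (limma adjusted p = 0.0201), 1.32-fold, the trained difference -0.17 ± 0.079 (0.661) and the average -0.29 ± 0.056 (0.0130). The average call was kept in all 16 fits with 1 array left out. The sedentary call was lost without HCR sedentary rat 5 (-0.35, adjusted p = 0.0652) or LCR sedentary rat 6.

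Dnajc27, a J-domain protein joined to a Rab-like GTPase, was called on average. It read 7.70, 7.46, 7.88 and 7.71 in HCR sedentary rats, 7.68, 7.97, 7.89 and 7.95 in HCR trained rats, 8.01, 8.00, 8.00 and 8.09 in LCR sedentary rats and 7.88, 8.22, 8.01 and 8.27 in LCR trained rats. Only the lowest LCR trained rat lay within the HCR range. The average difference was -0.28 ± 0.067 (limma adjusted p = 0.0327), 1.21-fold, and -0.31 (0.0297) without HCR sedentary rat 5. The call was lost without HCR sedentary rat 4, HCR trained rat 5, LCR sedentary rats 5 or 6 or LCR trained rat 4, with adjusted p up to 0.0676, and after quantile normalization (0.0987). Dnajc19, a J-domain protein of the mitochondrial import motor whose loss in people causes dilated cardiomyopathy with ataxia, read 10.76 to 10.88 in HCR trained and 10.94 to 11.05 in LCR trained rats, without overlap, and averaged -0.15 ± 0.044 (adjusted p = 0.0621).

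The 7 nucleotide exchange factors were Bag1 to Bag6 and Hspbp1, and Bag3 among them had the lowest p of any member in each line comparison. Of the 7 genes 6 were lower in HCR in each line comparison, with medians of -0.16, -0.11 and -0.14, and 4, 5 and 5 were lower after quantile normalization with medians still below 0. Bag3 read 11.05, 10.94, 11.02 and 11.07 in HCR sedentary rats and 11.25, 11.08, 11.09 and 11.11 in HCR trained rats. It read 11.37, 11.27, 11.32 and 11.36 in LCR sedentary rats and 11.46, 11.37, 11.52 and 11.40 in LCR trained rats. All 8 HCR rats lay below all 8 LCR rats, the highest HCR rat at 11.25 and the lowest LCR rat at 11.27. Bag3 was the 1 member without overlap over all 16 rats, as 0.302% of all genes were in this direction and 0.492% in either.

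For Bag3 the sedentary and trained differences were close, and the test of their difference gave 0.0013 ± 0.079 (adjusted p = 0.997). The line difference was -0.31 ± 0.056 in sedentary rats (n = 4 per line, limma adjusted p = 0.0157), -0.31 ± 0.056 in trained rats (adjusted p = 0.0481) and -0.31 ± 0.039 on average (adjusted p = 0.00103), or 1.24-fold. The average call was kept in all 16 fits with 1 array left out (adjusted p from 0.000635 to 0.00376, and 0.00349 without HCR sedentary rat 5). The sedentary call was lost without HCR sedentary rat 4 or LCR sedentary rat 6 (adjusted p up to 0.0617, and 0.0496 without HCR sedentary rat 5). The trained call was kept only without HCR trained rat 3 or LCR trained rat 2, with adjusted p from 0.0347 to 0.212 over the 16 fits and 0.0750 without HCR sedentary rat 5.

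Bag2, an inhibitor of the ubiquitin ligase CHIP that works beside HSP70, read 8.89, 8.77, 8.74 and 8.87 in HCR sedentary rats and 8.995, 9.17, 9.05 and 9.25 in LCR sedentary rats, with no overlap. Trained rats read 8.93, 8.71, 8.79 and 8.83 in HCR and 9.05, 8.92, 8.92 and 8.93 in LCR, overlapping near 8.93. The sedentary difference was -0.30 ± 0.067 (limma adjusted p = 0.0275), the trained difference -0.14 ± 0.067 (0.673) and the average -0.22 ± 0.047 (0.0192). Its sedentary call was lost without HCR sedentary rats 4 or 5 or LCR sedentary rats 3 or 6 (adjusted p up to 0.0890), and the average call was kept in all 16 fits. Quantile normalization ended both, with -0.18 (0.154) in sedentary rats and -0.15 (0.0988) on average. Bag5 averaged -0.19 ± 0.056 (adjusted p = 0.0645), Bag1 -0.14 ± 0.050 (0.106), Bag6 -0.094 ± 0.049 (0.251) and Bag4 0.11 ± 0.055 (0.251).

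**Figure D4:**
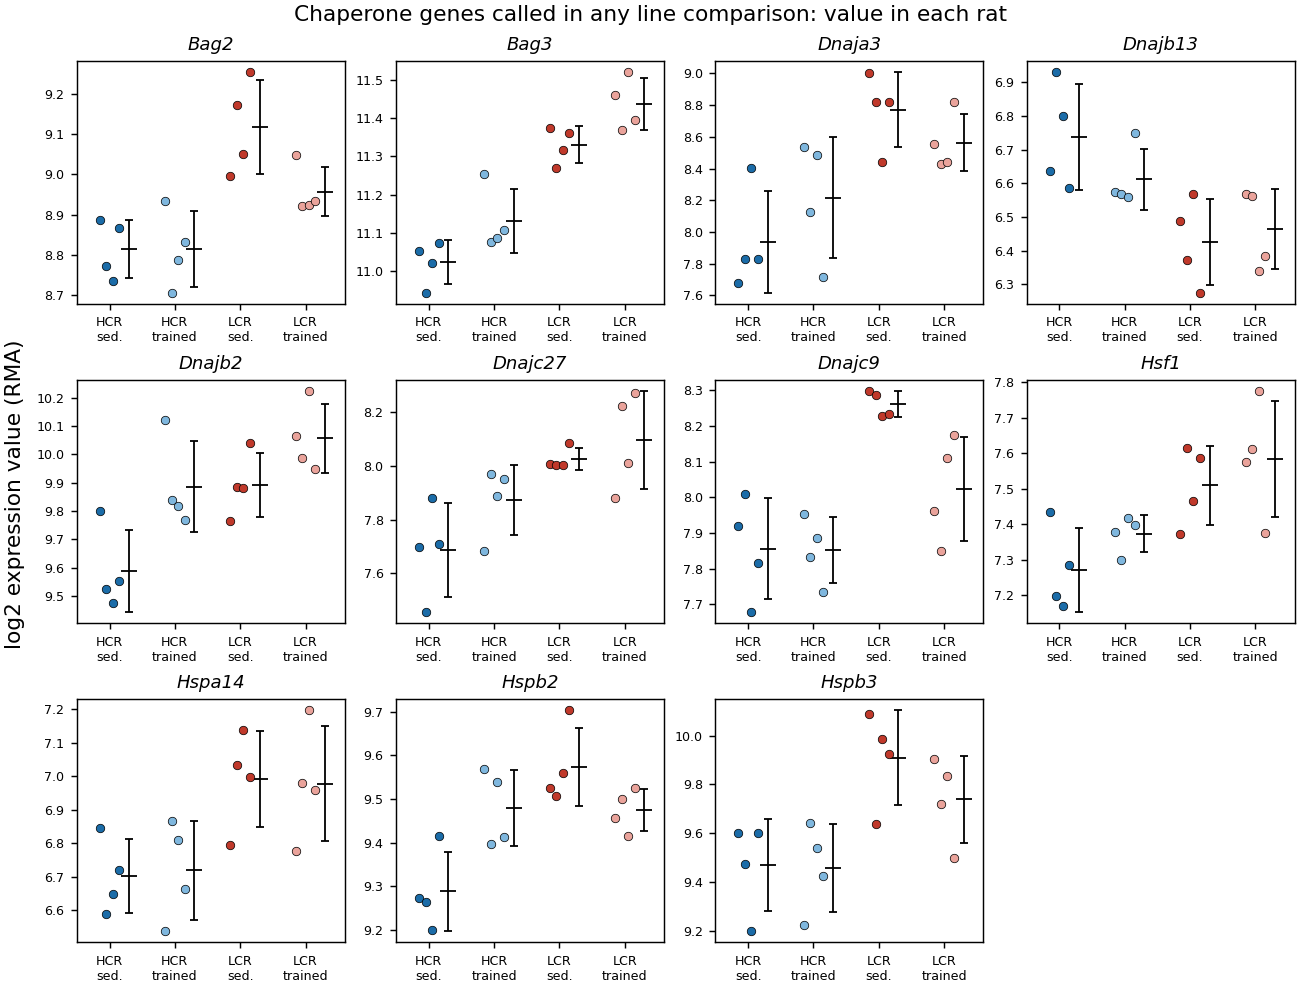
Each panel is 1 of the 11 genes called in a line comparison, with the log2 signal of every rat by group and, beside the points, the group mean with 1 SD (n = 4). In the Bag3 panel the 8 HCR rats lie between 10.94 and 11.25 and the 8 LCR rats between 11.27 and 11.52.

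Small heat shock proteins held 2 of the 11 called genes, Hspb2 and Hspb3. Both were called in sedentary rats, where 6.3% of all genes were, and Hspb3 on average, where 4.92% were. Of the 8 genes 5 were lower in sedentary HCR rats, 5 in trained and 4 on average, with medians of -0.028, -0.016 and -0.008. Hspb3, a small heat shock protein of muscle that forms a complex with HSPB2, read 9.60, 9.47, 9.20 and 9.60 in HCR sedentary rats and 10.09, 9.64, 9.99 and 9.93 in LCR sedentary rats. It read 9.22, 9.64, 9.54 and 9.42 in HCR trained rats and 9.91, 9.72, 9.84 and 9.50 in LCR trained rats. The sedentary lines did not overlap, and 1 LCR trained rat lay among the HCR rats. The sedentary difference was -0.44 ± 0.12 (limma adjusted p = 0.0458), 1.36-fold, the trained difference -0.28 ± 0.12 (0.624) and the average -0.36 ± 0.084 (0.0284). Without HCR sedentary rat 5 the adjusted p was 0.137 and 0.0587. In sedentary rats the call was lost in 8 of 16 fits with 1 array left out, those without HCR sedentary rats 4, 5 or 6, HCR trained rat 5, LCR sedentary rats 2, 5 or 6 or LCR trained rat 3. The average call was lost in 6, those without HCR sedentary rats 4 or 5, HCR trained rat 6, LCR sedentary rats 5 or 6 or LCR trained rat 3. Both calls ended after quantile normalization (0.1503 and 0.0810) and with the replicate block (0.0715 and 0.105).

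Hspb2, the partner of HSPB3, read 9.27, 9.26, 9.20 and 9.42 in HCR sedentary rats and 9.52, 9.51, 9.56 and 9.70 in LCR sedentary rats, without overlap. Trained rats read 9.57, 9.40, 9.54 and 9.41 in HCR and 9.46, 9.50, 9.42 and 9.53 in LCR, and here the lines lay over each other. The sedentary difference was -0.28 ± 0.063 (limma adjusted p = 0.0275) and the trained one 0.0047 ± 0.063 (0.996). The test of the change in this difference gave 0.29 ± 0.089 with an adjusted p of 0.475, so the states are not shown to differ. The sedentary call was lost without HCR sedentary rats 4 or 5 or LCR sedentary rats 5 or 6 (adjusted p up to 0.0890), and after quantile normalization, with a difference of -0.16 (0.149). Hspb2 and Cryab are neighbours in the genome, and their signals had r = 0.051 over the 16 arrays after group means were removed, as a description.

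The other small heat shock proteins were not called. Hspb6 read 13.54 to 13.75, Hspb7 differed by -0.018 ± 0.038 on average, Hspb1 by 0.057 ± 0.048 and Hspb8, the partner of BAG3, by -0.082 ± 0.044 (adjusted p = 0.263). Near the array floor, Hspb9, a testis gene, read 5.54 to 5.76 in HCR sedentary rats and 5.38 to 5.41 in LCR sedentary rats without overlap (0.24 ± 0.076, adjusted p = 0.0719).

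Groups that did not overlap were counted for all members. In sedentary rats the 2 lines did not overlap for 13 of 71 genes, against 20.2% of all genes. Of these 9 genes lay wholly lower in HCR (Bag2, Bag3, Dnaja3, Dnajc27, Dnajc9, Hspa9, Hspb2, Hspb3 and Hspe1, against 11.4% of all genes) and 4 wholly higher (Dnajb13, Dnajb14, Dnajc6 and Hspb9, against 8.86%). In trained rats the lines did not overlap for 3 of 71, against 3.36%. All 3 lay wholly lower (Bag3, Dnajc19 and Dnajc5, against 1.81% of all genes) and 0 wholly higher, against 1.54%.

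Training gave no called change in any member. In HCR rats 42 of 71 genes were higher after training, with a median of 0.018 against 0.006 over all genes, and the median turned to -0.012 after quantile normalization. In LCR rats 38 of 71 were higher, with a median of 0.014 against -0.005. Of the members 0 was called in either line, as 0% of all genes were, and 7 in HCR (9.86%, against 14.7% of all genes) and 4 in LCR (5.63%, against 6.77%) had an unadjusted p under 0.05 in limma. Averaged over lines 0 members were called, against 0.00703% of all genes, and 9 had an unadjusted p under 0.05 (12.7%, against 10.6% of all genes). Dnajc genes were higher after training for 17 of 23 in HCR (median 0.082) and 12 of 23 in LCR (0.0041), and for 13 (0.0061) and 12 (0.0032) after quantile normalization.

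The members of lowest p after training are given as values. Dnajb2 read 9.48 to 9.80 in sedentary and 9.77 to 10.12 in trained HCR rats, a difference of 0.30 ± 0.091 (limma adjusted p = 0.228), and 0.16 ± 0.091 in LCR rats (0.925). Hspb2 differed by 0.19 ± 0.063 in HCR (0.245) and -0.099 ± 0.063 in LCR rats. Dnajc21, a J-domain protein of ribosome assembly, read 6.80 to 7.12 in sedentary and 7.09 to 7.39 in trained HCR rats, and 6.89 to 7.05 and 6.98 to 7.41 in the LCR rats. Its trained rats lay mostly above the sedentary ones in both lines, by 0.27 ± 0.098 in HCR (0.270) and 0.23 ± 0.098 in LCR (0.852). Bag3 was 0.11 ± 0.056 higher after training in each line (adjusted p = 0.395 and 0.914).

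Lower after training in HCR were Hspb9 by -0.21 ± 0.076 (adjusted p = 0.269), Bag4 by -0.17 ± 0.078 (0.349) and Dnajb14 by -0.13 ± 0.062 (0.369). In LCR rats Dnajc9 read 8.23 to 8.30 sedentary and 7.85 to 8.17 trained, without overlap, a difference of -0.24 ± 0.079 (0.656), and Bag2 and Hspb1 differed by -0.16 ± 0.067 (0.827) and -0.15 ± 0.068 (0.888). In HCR rats 3 members lay wholly higher after training (Bag3, Dnajc30 and Hspb6, against 4.51% of all genes) and 0 wholly lower, against 3.78%. In LCR rats 3 members did not overlap, against 3.42% of all genes. Of these 1 lay wholly higher (Hspb9, against 1.32%) and 2 wholly lower (Dnajc9 and Hspa12a, against 2.1%). The test of whether training acted differently in the lines called 0 members (0% of all genes), with 3 at an unadjusted p under 0.05 (4.23%, against 10.7% of all genes).

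**Figure D5:**
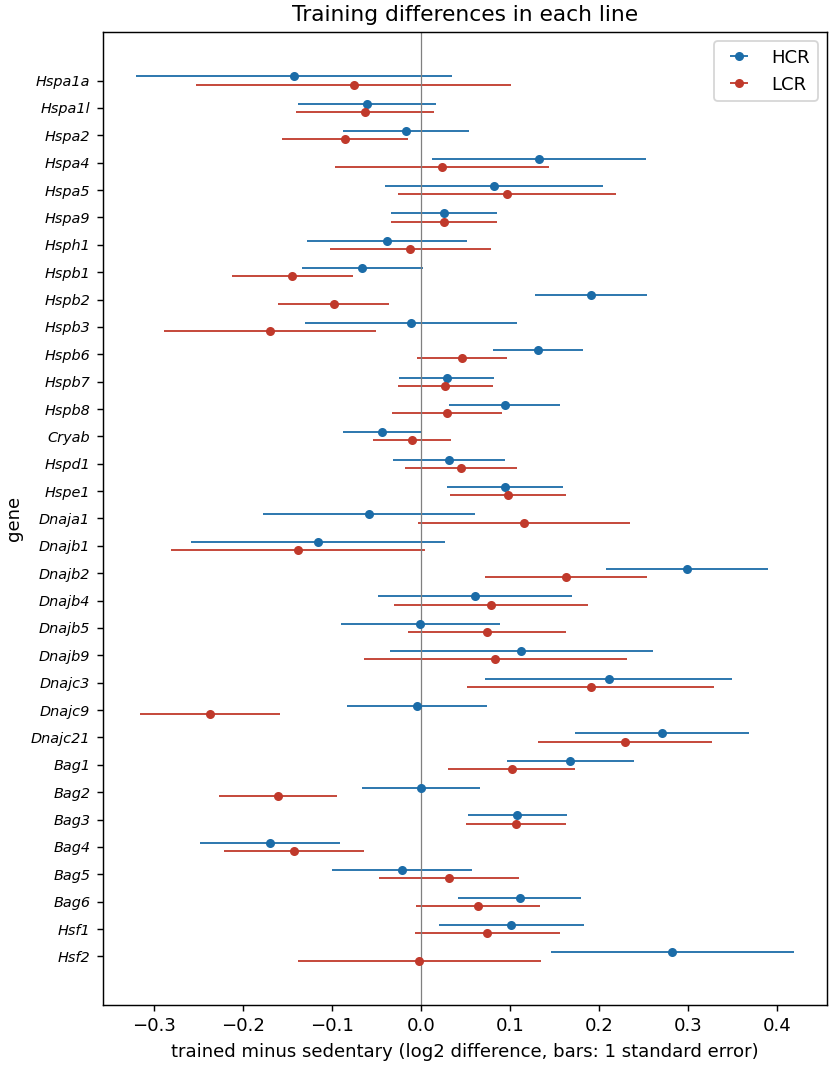
Each of the named genes drawn has its trained minus sedentary difference (log2 signal) with 1 SE in HCR and in LCR rats. Dnajb2 reaches 0.30 in HCR, no difference drawn passed the test, and Bag3 lies at 0.11 in both lines.

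Related genes outside the set were examined from lists by function. Of 18 measured genes of the HSP90 system 16 were lower in sedentary HCR rats, 15 in trained rats and 17 on average. The median was -0.13 each time. Of all genes 53.6%, 51.4% and 52.1% were lower, and of genes with a mean at or above the array median 69.0%, 54.5% and 65.0%. After quantile normalization 11, 15 and 15 of the 18 were lower. On average 3 were called, where 4.92% of all genes were: Unc45b, a chaperone of the myosin head, by -0.19 ± 0.041 (limma adjusted p = 0.0228), Ppid, a cyclophilin, by -0.25 ± 0.056 (0.0249) and Stub1, the ubiquitin ligase CHIP, by -0.18 ± 0.049 (0.0498). Unc45b read 10.02 to 10.19 over the 8 HCR rats and 10.25 to 10.46 over the 8 LCR rats, so the lines did not overlap. Of all genes 0.302% lay wholly lower in HCR in this way. Without HCR sedentary rat 5 the adjusted p was 0.0514, 0.0564 and 0.0832. The average call of Ppid was also lost without HCR sedentary rat 4, LCR sedentary rat 5 or LCR trained rat 3, and that of Stub1 in 13 of 16 fits with 1 array left out. Stub1 was the 1 gene of this list called in sedentary rats, by -0.28 ± 0.069 (0.0359), a call lost in 6 of the 16 fits, where 6.3% of all genes were called. After quantile normalization 0 genes of this list were called, and with the replicate block the adjusted p was 0.0572 for Ppid and 0.0890 for Stub1 on average and 0.0511 for Stub1 in sedentary rats.

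The cytosolic chaperonin and its feeder prefoldin, which fold actin and tubulin, were lower in HCR for 13 of 13 measured genes in all 3 line comparisons, also after centring and quantile normalization, with medians of -0.15, -0.12 and -0.16 and 0 called. Of all genes 53.6%, 51.4% and 52.1% were lower, and of genes with a mean at or above the array median 69.0%, 54.5% and 65.0%. On average Pfdn1 had the lowest adjusted p of the 13 (-0.19 ± 0.059, 0.0758). An unadjusted p under 0.05 in limma was reached by 9 of 13 on average, against 27.9% of all genes and 31.5% of genes of that level. Folding genes of the endoplasmic reticulum were lower for 14, 15 and 16 of 21 with 0 called, and their median turned above 0 in sedentary rats and on average after quantile normalization. Of 6 measured genes of a list of BAG3 partners and selective autophagy genes, all 6 were lower in each line comparison (5 in sedentary rats after quantile normalization). On average 2 of them were called, where 4.92% of all genes were. Among them Synpo2, which ties BAG3 to the Z-disc, averaged -0.15 ± 0.039 (adjusted p = 0.0471, but 0.0038 ± 0.040 as the mean of all its probe sets) and Sqstm1, the autophagy receptor p62, -0.26 ± 0.071 (0.0485).

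Sqstm1 read 10.861 to 11.145 in the 8 HCR rats and 11.148 to 11.711 in the 8 LCR rats. The lines thus just failed to overlap, as for 0.302% of all genes in this direction. Its call was lost in 13 of 16 fits with 1 array left out, and that of Synpo2 in 12. Both were lost without HCR sedentary rat 5 (limma adjusted p = 0.1003 and 0.0809), after quantile normalization (0.118 and 0.212) and with the replicate block (0.0647 and 0.0688). As the mean of its probe sets Sqstm1 averaged -0.072 (0.279). Trap1, the HSP90 of mitochondria, averaged -0.27 ± 0.073 (adjusted p = 0.0489, and 0.0576 without that array), a call lost in 14 of 16 such fits and after quantile normalization (0.153), while its list of 10 mitochondrial quality genes was lower for 7, 6 and 7 with a median that turned above 0 in sedentary rats and on average after quantile normalization. The 7 measured HSF1 targets outside the set were lower in HCR in each line comparison (4 in sedentary rats and 6 on average after quantile normalization) with 0 called. Of genes with a mean at or above the array median 69.0%, 54.5% and 65.0% were lower. Immediate early genes, which answer handling and stress within minutes, were lower after training for 14 of 14 in HCR (median -0.27) and 11 of 14 in LCR (-0.18) with 0 called. Of all genes 48.1% were lower after training in HCR and 52.0% in LCR, with 0% called. The part of handling was not tested. Between sedentary lines 9 of the 14 immediate early genes were higher in HCR and 5 lower (median 0.092). Of these Ier3 was called lower (-0.41 ± 0.11, limma adjusted p = 0.0422), where 4.29% of all genes were. Its call was lost in 6 of 16 fits, among them that without HCR sedentary rat 5 (0.120), and after quantile normalization (0.106).

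Genes that followed Bag3 across the 16 rats were found by Pearson correlation over all genes. The 5 nearest were Timm29 (r = 0.913), Adsl (0.911), Ufd1 (0.910), C17h7orf25 (0.907) and Ubtf (0.906), none of them a member, and each was lower in HCR on average, from -0.17 for Adsl to -0.27 for C17h7orf25. These 16 points hold the line difference itself and share the array's scaling. After group means were removed, a list of members chosen after the first fit gave r = 0.80 between Bag3 and Dnajb4, 0.78 between Hspe1 and Dnajc3, 0.74 between Bag3 and Hspa9, 0.73 between Hspd1 and Hspa9 and 0.44 between the neighbours Hspd1 and Hspe1. Over all pairs of that list r ran from -0.64, between Cryab and Hspa9, to 0.80.

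The other 37 probe sets of members gave 0 calls in any comparison. Against the probe set that stood for the gene they had the opposite sign for 18 of 37 in sedentary rats, 11 in trained rats and 15 on average.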

How the data were processed

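Total RNA of the left ventricle of each rat was hybridised to 1 Affymetrix rat expression array, per the labels. The authors deposited 1 table of RMA values (background correction, quantile normalization of perfect-match probes and a linear-model summary, per the series' design text), taken as log2 from their range, since no log base or version is given in the sources used here. Per the submitters' processing notes they used RMA and limma. RMA's quantile step makes the distributions of probe signals alike between arrays and can hide a shift shared by most genes. The deposited probe set values still differed in spread, with an interquartile range from 1.97 (HCR sedentary rat 5) to 2.27 (LCR trained rat 4).

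Of 31099 probe sets 57 controls were left out. Gene symbols came from the platform annotation, in which 20826 probe sets had 1 symbol, 436 several and 9780 none listed. All 108 member probe sets had the same symbol in RefSeq. The 4 group means were fitted to the 16 arrays with limma 3.58.1 in R 4.3.3 (lmFit, eBayes, 12 residual degrees of freedom), p-values were adjusted by Benjamini and Hochberg over 31042 probe sets, and the lines, the training states, their averages and the interaction were compared. The script was tested on simulated data. Precision is limited by the 4 arrays per group, and probe sets near the array floor have no detection calls.

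The members and lists were chosen with earlier results of these data known. Named are the called members, the 3 of lowest p in each direction of each comparison of 2 groups, preset members by role, the 5 genes most like Bag3 and genes of the pathway lists. Families by role, the genes of the within-group correlations, the genes drawn in the training plot, the family counts under other scalings or without HCR sedentary rat 5, and the alternatives for called pathway genes were chosen after values had been seen. Protein sequences were not used here.

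Alternatives were array centring, quantile normalization of the deposited values, a filter on low signal, 1 probe set per gene, the mean of a gene's probe sets, only the arrays compared, a variance trend with robust fitting, array weights, a replicate block and leaving out each array.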

Additional observations from a re-analysis of the deposited data

Results flagged for a closer look

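Of 200 groups of 4 rats (43 named members and 7 called pathway genes in 4 groups), 7 held a rat whose gap to its nearest neighbour took up more of the group's range than Dixon's critical value. Chance gives about 1 in 20. Bag3 read 11.25 in HCR trained rat 3 against 11.08 to 11.11 in the other 3, which made it the HCR rat nearest to the LCR rats. Bag2 read 9.05 in LCR trained rat 1 against 8.92 to 8.93. Dnajb13 read 6.75 in HCR trained rat 6 against 6.56 to 6.57, and Dnajc27 read 8.09 in LCR sedentary rat 6 against 8.00 to 8.01. Low readings were found for Hspa2, 4.52 in LCR sedentary rat 3 against 4.72 to 4.76, for Hspb1, 11.59 in the same rat against 11.75 to 11.76, and for Synpo2, 11.16 in LCR trained rat 1 against 11.28 to 11.30. The cause of these readings was not tested.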

How the results depend on the processing

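The count of members called between sedentary lines was 7, and became 11 with centred arrays, 2 after quantile normalization and 13 with array weights. For trained lines the 1 call (Bag3) became 0 with centred arrays, 1 probe set per gene, only the arrays compared, array weights or the replicate block. On average over training the 10 calls became 17 with centred arrays and 3 after quantile normalization. Leaving out 1 array gave 0 to 8 calls for sedentary lines, with 1 without HCR sedentary rat 4, 2 without HCR sedentary rat 5, 4 without LCR sedentary rats 3 or 5 and 0 without LCR sedentary rat 6. It gave 0 to 1 for trained lines, and 4 to 14 on average, with 4 to 6 without HCR sedentary rats 4 or 5, HCR trained rats 5 or 6, LCR sedentary rats 3, 5 or 6 or LCR trained rats 3 or 4. Over all genes the sedentary count of 895 became 1590 with centred arrays, 275 after quantile normalization, 2256 with array weights and 1596 with the replicate block. With 1 array left out it ran from 21 to 1121, with 21 without LCR sedentary rat 6 (0.148% of all genes), 63 without HCR sedentary rat 4 and 71 without HCR sedentary rat 5 (0.499%), the average count ran from 293 to 1448 and the trained count from 2 to 21. The average count of 700 became 1139 with centred arrays and 387 after quantile normalization, and the trained count of 13 became 8 with centred arrays or a variance trend and 7 with only the arrays compared. Training and the interaction gave 0 called members under each alternative run. The fit on only the arrays compared gave no value for the interaction and the averages. Synpo2 turned from -0.15 to 0.0038 with the mean of all its probe sets. The cause of these shifts was not tested.

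With the rat number as a replicate block 10 members were called in sedentary rats, 0 in trained rats and 8 on average. Same-numbered rats of different groups had deviations correlated at -0.23 to 0.34, with 6 of 16 pairs over 0.1, so the number was not taken as a pairing. The number of arrays, 4 per group, limits all of these comparisons.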
